A study of Mus musculus with 16 samples.

Results

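Versican, encoded by *Vcan*, is a large chondroitin sulfate proteoglycan of the extracellular matrix. Its N-terminal globular domain binds hyaluronan and link protein, and its middle part carries the chondroitin sulfate chains. Alternative splicing gives versican transcripts that differ in the middle part, and among blood cells it is known as a transcript of monocytes. *Vcan* was chosen by its change between tumor-bearing and tumor-free mice in CDPs (common dendritic cell progenitors), and its members are the 3 noncontrol probes that carry the gene name *Vcan*, out of 39429 probes for 24290 symbols on the array. Of the 3 probes, 2 passed the filter on dim probes, which kept the 27433 probes with signal well above background on 3 or more of the 4 arrays of some group.

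The arrays held MDPs (macrophage-dendritic cell progenitors, which give rise to CDPs) and CDPs sorted from lineage-depleted BM of female C57/Bl6 mice, each sample pooled from 2 mice. Tumor-bearing mice carried orthotopic mammary tumors of PyMT-B6, a line derived from the MMTV-PyMT model on the same background, where the MMTV promoter drives the polyoma middle T antigen in mammary epithelium, and were used at a tumor diameter of 1.5 cm. Age-matched mice without a tumor were the controls. The 4 groups (tumor-free and PyMT-B6 MDPs, tumor-free and PyMT-B6 CDPs) had 4 samples each, numbered 2 to 5, from 4 independent experiments, and each sample lay on its own one-color array. The tumor itself was not on these arrays. In these bulk sorted samples, more cells of a type and more RNA per cell cannot be told apart.

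The arrays lay on 4 slides. Slides 2 and 3 held each group once, whereas slide 1 held no CDP sample and slide 4 no MDP sample of tumor-bearing mice. Between 58.8% and 71.5% of probes were well above background on an array. This share went with the slide, from 58.8% to 64.3% on slide 1 up to 69.4% to 71.5% on slide 4. Slide 4 held 2 PyMT-B6 CDP samples and slide 1 held 2 PyMT-B6 MDP samples, so detection is partly confounded with group. Replicates of a group correlated with r from 0.904 to 0.977, and the 75th percentile of spot intensity ran from 3618 to 4654. The level given below is the log2 spot intensity minus that percentile of its own array, called the normalized log2 signal, so a probe at 0 sat at the 75th percentile.

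The 3 probes read different ends of the gene and different transcripts, and their sequences are shown because the result turns on which transcripts each can see. They lie on the minus strand of chromosome 13 (mm9). The RefSeq tables (GRCm38.p6) list 5 curated *Vcan* transcripts, and the probe annotation in the spot tables names all 5. Capitals mark the stop triplets (TAA, TAG, TGA) in any of the 3 reading frames.
A_55_P1960208 (chr13:89851810-89851869): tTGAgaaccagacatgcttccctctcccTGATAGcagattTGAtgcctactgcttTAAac
A_52_P1044655 (chr13:89850072-89850131, first 30 of 60 bases): cggcaggcttTAGgttgtctatgTAAaTGA
A_55_P1960202 (chr13:89795080-89795139, first 30 of 60 bases): ttcatccTAAtgtgtacTAGagcacagaaa
The annotation assigned A_55_P1960208 to 4 of the 5 transcripts, the short NM_172955 among them, and its 60 bases left 2 of 3 reading frames without a stop. It starts at base 1428 of NM_172955, and it is called the 5′-side probe here. A_52_P1044655 was assigned to NM_172955 alone, starting at base 3166. The distance between these probes was 1738 bases both in the genome and in the transcript, so no intron lies between them in NM_172955. A_55_P1960202 was also assigned to 4 transcripts, but not to NM_172955, and it starts at base 12207 of NM_001081249, 56730 bases downstream of the 5′-side probe in the genome. It is called the 3′-end probe of the long transcripts, and it shared 3 transcripts with the 5′-side probe and none with A_52_P1044655. Both A_52_P1044655 and A_55_P1960202 had a stop in each of the 3 frames of their 60 bases. Exon and UTR borders were not used here, since no annotation of the mm9 build was at hand. The GC content of the probes was 45.0%, 41.7% and 36.7% in the order printed, so levels were compared between arrays and never between probes.

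In CDPs of tumor-bearing mice all 3 probes were higher than in every other group, and these values describe the contrast that brought *Vcan* forward, without a test. On the 5′-side probe the spot intensity in PyMT-B6 CDPs was 4508, 7873, 10261 and 2388 for replicates 2 to 5. In tumor-free CDPs it was 1477, 517, 437 and 45.9 in the same order. The 4 tumor-bearing arrays all lay above the 4 tumor-free arrays, and the tumor-free array of replicate 5 was not well above background. The normalized log2 signal was 0.37 ± 0.89 (SD, n = 4) in PyMT-B6 CDPs and −3.59 ± 2.18 (SD, n = 4) in tumor-free CDPs. The fitted change was 3.96 (SE 0.90), or 15.6-fold. By it the probe ranked 10 among the 27433 probes that passed the filter, a description only, since this change brought *Vcan* forward. The wide spread of the tumor-free CDPs rested on replicates 2 and 5, since the change was 4.67 without the former and 2.95 without the latter.

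On the 3′-end probe of the long transcripts the contrast was between signal and no signal above background. PyMT-B6 CDPs had intensities of 698, 1176, 1508 and 352 for replicates 2 to 5, all well above background. The other 12 arrays lay between 27.7 and 35.2, and all 12 were surrogate values, which Feature Extraction writes in place of a signal that does not exceed the noise of the background. The normalized log2 signal was −2.37 ± 0.89 (SD, n = 4) in PyMT-B6 CDPs and −7.10 ± 0.20 (SD, n = 4) in tumor-free CDPs, a difference of 4.73 on the processed signal (SE 0.32). This SE pools the spread of all 4 groups. Every group but PyMT-B6 CDPs held only surrogate values, with SDs of 0.06 to 0.20, so the SE does not measure the spread between samples. The tumor-free arrays held only surrogate values. A floor was therefore taken on each dim array, the lowest signal among its probes well above background. Against this floor PyMT-B6 CDPs were 7.59-fold higher on the processed signal. The floor is not a strict upper limit for an undetected spot. On the 5′-side probe PyMT-B6 MDP replicate 3 was not well above background at −5.10, over its floor of −5.38. The difference after normexp, another background correction, was smaller than 7.59-fold (2.15, log2). The order of the 4 tumor-bearing arrays was the same on the 5′-side and the 3′-end probe, with replicate 4 highest, then 3, then 2, then 5.

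The probe of NM_172955 alone was dim throughout. Its intensity in PyMT-B6 CDPs was 261, 103, 120 and 111 for replicates 2 to 5, and replicates 2 and 4 were well above background. On the other 12 arrays it was 22.9 to 59.4, none of them well above background and 10 of them surrogate values. With 2 arrays of a group above background it failed the filter and had no fitted value. The difference of the CDP means was 2.49 (log2), the highest tumor-bearing array was replicate 2 and not replicate 4, and no fold is given because only 2 of 4 arrays measured the probe.

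**Figure D1:**
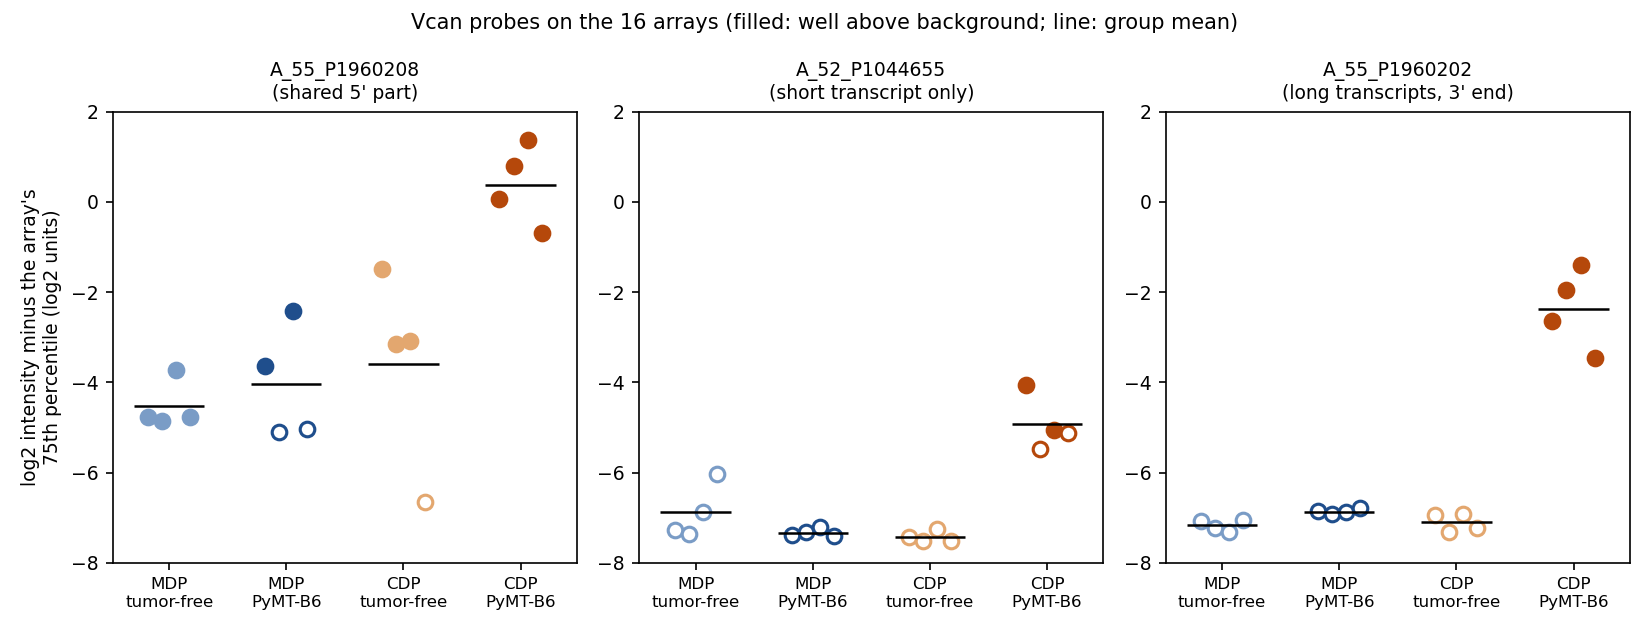
Normalized log2 signal (log2 intensity minus the array's 75th percentile, vertical axis) of each *Vcan* probe on the 16 arrays, by group (horizontal axis, 4 arrays each). Filled points were well above background, open points were not, and lines are group means. In PyMT-B6 CDPs all 4 arrays lay above every array of the other groups on each probe, and on the 3′-end probe A_55_P1960202 no other array was above background. That probe passed the filter through PyMT-B6 CDPs alone. The probes read 1 gene, chosen by the CDP contrast, and the share of all probes that separate in this way was not counted.

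The signal before background subtraction showed the same on 2 of the 3 probes. On the 5′-side probe the mean spot signal was 2770 to 10069 in PyMT-B6 CDPs against 561 to 1771 in tumor-free CDPs. On the 3′-end probe it was 805 to 1719 against 433 to 562. On the NM_172955 probe the ranges overlapped, 601 to 821 against 462 to 667. The median signal of the surrounding background was 72 to 96 on these spots, far under the mean signal of even the dimmest spot. Subtracting this local background in place of the processed signal (normexp, offset 50) gave changes of 2.95 on the 5′-side probe, 2.15 on the 3′-end probe and 0.68 on the NM_172955 probe, so the direction held on all 3 and the size depended on the background correction.

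Within slides the CDP difference had the same direction wherever it could be formed. On the 5′-side probe it was 4.44 on slide 2, 0.78 on slide 3 and 3.57 on slide 4. On the 3′-end probe it was 5.51, 3.47 and 5.01, and on the NM_172955 probe 2.19, 2.29 and 2.74, for the same slides. On both of these probes the tumor-free values were all surrogates. For the NM_172955 probe on slide 3 the tumor-bearing array was not well above background either, so 2.29 lies between undetected spots. Slide 3 gave the smallest difference on both probes that passed the filter, and it carried the highest tumor-free array (replicate 2) and the lowest tumor-bearing array (replicate 5) of the 5′-side probe. Slide 1 held 1 tumor-free CDP array (replicate 5, the lowest of the 5′-side probe) and gave no difference. With slide as a block the fitted change was 3.74 on the 5′-side probe and 4.73 on the 3′-end probe.

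**Figure D2:**
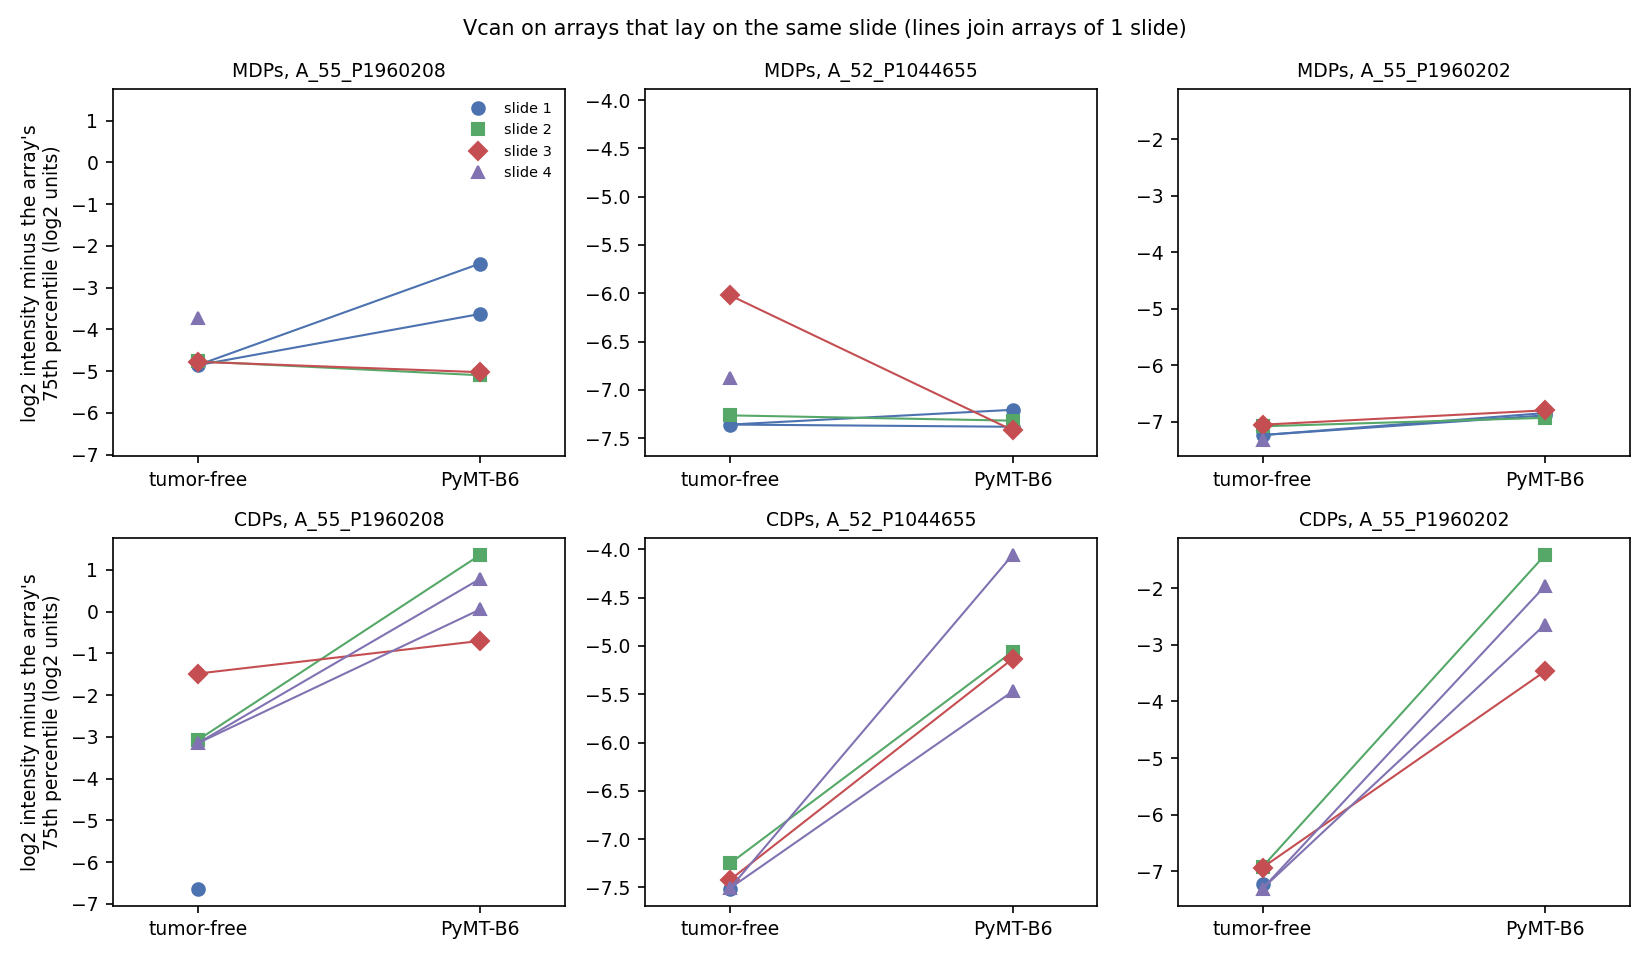
Normalized log2 signal (vertical axis) of the *Vcan* probes in tumor-free and PyMT-B6 samples (horizontal axis), MDPs in the upper and CDPs in the lower row. Color and symbol give the slide, and lines join arrays of 1 slide. All CDP lines rise on each probe, from 0.78 to 4.44 on the 5′-side probe, whereas MDP lines of that probe rise on slide 1 and fall slightly on slides 2 and 3. Some CDP lines of the NM_172955 probe join spots that were both not well above background.

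In MDPs, the contrast not used to choose the gene, no tumor change of *Vcan* passed the test. On the 5′-side probe tumor-free MDPs had intensities of 137, 146, 353 and 141 for replicates 2 to 5, all well above background. PyMT-B6 MDPs had 323, 109, 674 and 120, of which replicates 2 and 4 were well above background. The groups overlapped, with both the highest and the lowest array among the tumor-bearing samples. The normalized log2 signal was −4.53 ± 0.54 (SD, n = 4) in tumor-free and −4.05 ± 1.27 (SD, n = 4) in PyMT-B6 MDPs. The change was 0.49 (SE 0.90, confidence interval −1.44 to 2.41, limma with Benjamini-Hochberg adjustment over all tested probes, adjusted p = 0.813), and an exact two-sided permutation test gave p = 0.686, where the 70 relabelings allow no p under 0.0286. The interval is wide, so a rise or fall of over 2 log2 units upward and over 1 downward could not be told from none. Of all tested probes, limma called 0.0328% higher and 0.0328% lower in tumor-bearing MDPs (FDR under 0.05 and fold above 1.5).

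The MDP value depended on slide and on single arrays. It was 1.83 on slide 1, where both tumor-bearing samples above background lay, −0.33 on slide 2 and −0.25 on slide 3, and 0.71 with slide as a block (adjusted p = 0.733, limma). Without PyMT-B6 replicate 4 it was −0.055, and after normexp −0.094. The other *Vcan* probes were well above background on none of the 8 MDP arrays, so no change is given for them.

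The order of the groups on the 5′-side probe was tumor-free MDPs, PyMT-B6 MDPs, tumor-free CDPs and PyMT-B6 CDPs, from low to high. The first 3 overlapped and their neighbors did not differ beyond the spread between arrays, while the 4 arrays of PyMT-B6 CDPs stood apart from all 12 others. CDPs exceeded MDPs by 0.94 (SE 0.90) in tumor-free mice and by 4.42 (SE 0.90) in tumor-bearing mice. Both differences share CDP arrays with the contrast that chose the gene and were not tested. The tumor-free difference was 0.24 without CDP replicate 2 and 1.96 without CDP replicate 5. On the 3′-end probe PyMT-B6 CDPs were 7.11-fold above the floor of the PyMT-B6 MDP arrays on the processed signal. This value is no strict bound either, and it depends on the background correction. In tumor-free mice neither progenitor was above background on this probe.

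**Figure D3:**
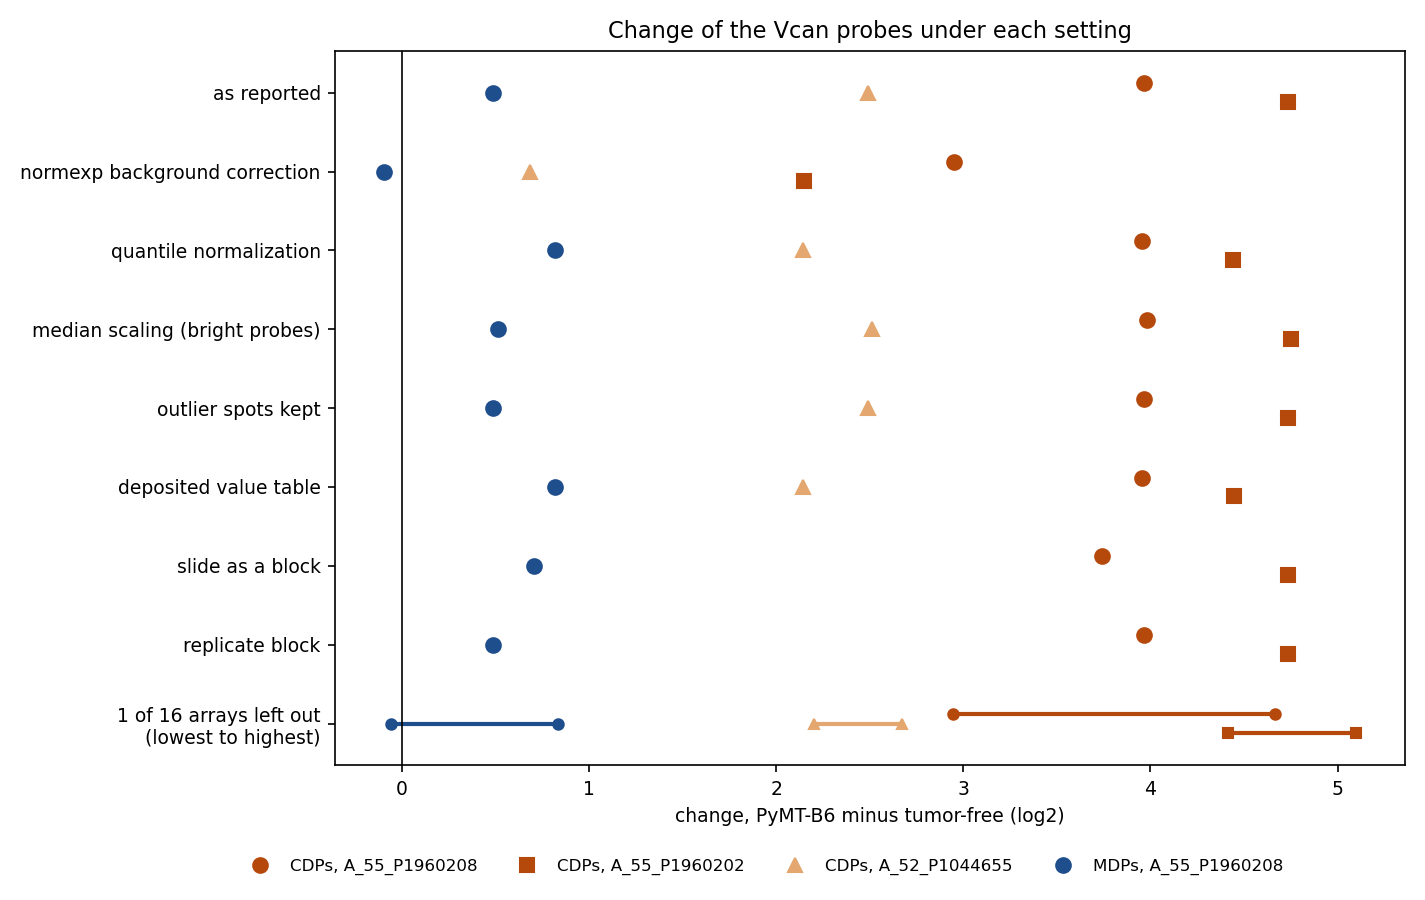
Change with tumor (PyMT-B6 minus tumor-free, log2, horizontal axis) of the *Vcan* probes under each setting (vertical axis), with the lowest and highest value when 1 of the 16 arrays is left out in the bottom row. CDP changes of all 3 probes lay above 0 under every setting drawn, between 0.68 and 5.10, whereas the MDP change of the 5′-side probe lay between −0.094 and 0.84.

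Likeness to the pattern of the 5′-side probe was measured over the 16 arrays for 17240 genes, each by 1 probe. The arrays share depth and slide effects, and likeness is given as Pearson's r and Spearman's rho without a test. *Mindy3*, a deubiquitinase gene, came first (r = 0.91, rho = 0.86), but its group means spanned a much smaller range than those of *Vcan*, from −0.05 in tumor-free MDPs to 0.67 in PyMT-B6 CDPs. *Bst1*, which encodes the ectoenzyme CD157, followed with r = 0.90 (rho = 0.69). *Bst1* was well above background on 0, 1, 2 and 4 of 4 arrays in tumor-free MDPs, PyMT-B6 MDPs, tumor-free CDPs and PyMT-B6 CDPs, and its mean in the last was −2.48. *Cd300lf*, an inhibitory receptor of myeloid cells, had r = 0.89 (rho = 0.80) and went from −1.76 in tumor-free CDPs to 0.16 in PyMT-B6 CDPs. *Tarm1*, an activating receptor of myeloid cells, had r = 0.89 (rho = 0.85) and a mean of −2.13 in PyMT-B6 CDPs against −6.07 in tumor-free CDPs.

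The other 6 of the 10 had r from 0.85 to 0.88. Among them, *F10*, coding for coagulation factor X, went from 2.09 to 3.36 in CDPs. *Ms4a4a*, a tetraspanning membrane protein of macrophages, went from −1.65 to 0.16. *Fcnb*, the ficolin of myeloid cells, had the highest rho of all 17240 genes (0.88) and went from 0.00 to 1.09. *Slc52a3*, a riboflavin transporter, went from −6.03 to −3.58, and *Rnaseh2b*, a subunit of ribonuclease H2, from 2.27 to 2.58. *Sbf2* was well above background in PyMT-B6 CDPs alone, on 3 of 4 arrays. After centering on slide means 3 of the 10 stayed among the 10 most alike, and with rho in place of r 5 did.

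**Figure D4:**
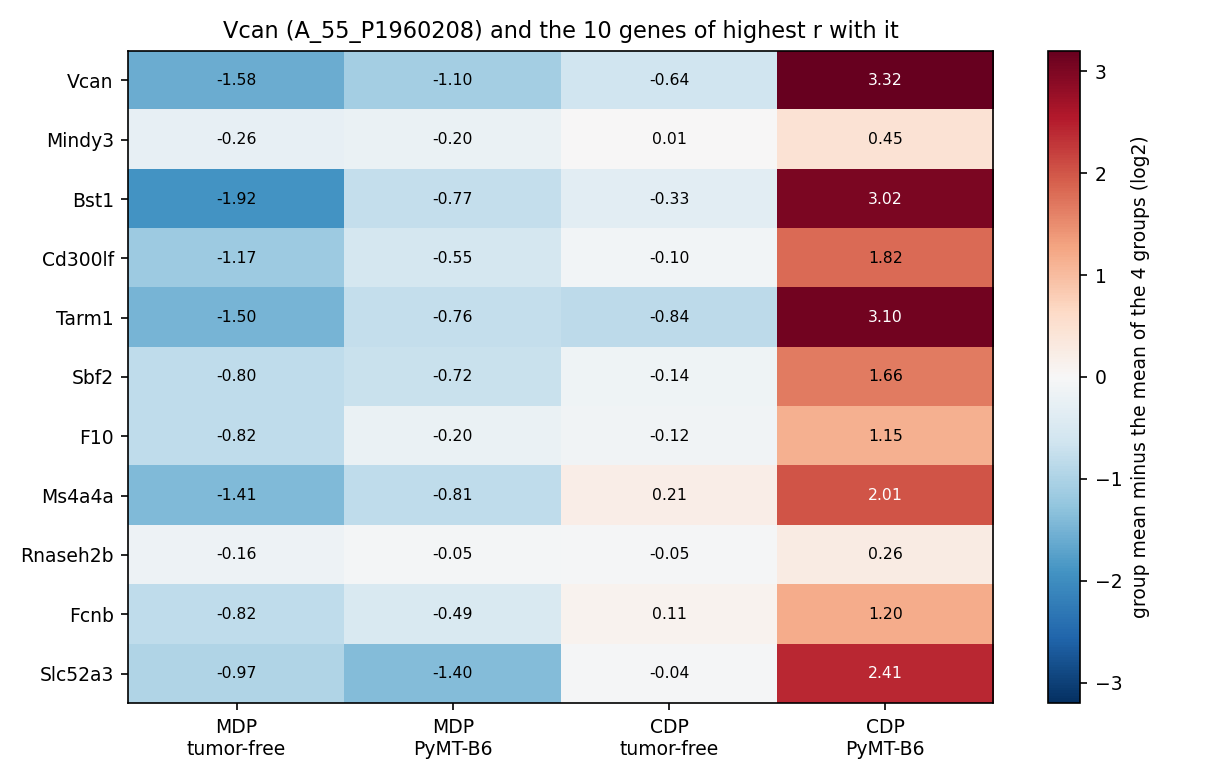
Group means (log2) of *Vcan* on the 5′-side probe and of the 10 genes with the highest Pearson r with it over 16 arrays, each minus the mean of its 4 group means, with colors from blue (below) to red (above). Every row is highest in PyMT-B6 CDPs, by 0.26 for *Rnaseh2b* up to 3.32 for *Vcan*.

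For the 3′-end probe, where 12 of 16 values are surrogates and r rests mainly on the 4 PyMT-B6 CDP arrays, the 5 most alike were *Ccr1l1*, a chemokine receptor-like gene (r = 0.95), *Timp1*, an inhibitor of metalloproteinases (r = 0.95), *Cd300lf* (r = 0.92), the transcription factor *Sp8* (r = 0.91) and the kinase gene *Map3k6* (r = 0.89). *Cd300lf* stood in both lists. *Ccr1l1* and *Timp1* were above background in PyMT-B6 CDPs alone, on 3 of 4 arrays each. None of the 5 was among the 5 most alike by rho. Between the *Vcan* probes themselves, r over the 16 arrays was 0.87 for the 5′-side and 3′-end probes, and 0.75 and 0.89 for the NM_172955 probe with each of them.

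Of the genes of the versican pathway, listed with earlier results of these data known, 1 was called. All 78 had a probe and 58 passed the filter, and a gene with several probes was read by the brightest. In CDPs limma called 1 of 58 higher and 0 lower with tumor, against 0.802% higher and 0.999% lower of all tested probes, and 7 had an unadjusted p under 0.05, which 13.7% of all tested probes had in CDPs and 10.4% in MDPs. The unadjusted counts of each list below stand against these shares. Their median change in CDPs was 0.11, and 0.08 over all tested probes. In MDPs limma called 0 of 58, with 7 at an unadjusted p under 0.05, and the median was −0.17 against −0.12 over all tested probes. With slide as a block 3 were called in CDPs, all higher (*Selp*, *B3galt6* and *Srgn*), while that setting called 1248 of all 27433 probes, a like share.

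Among receptors and partners of versican (16 of 19 tested), *Selp*, which encodes P-selectin, a lectin that binds chondroitin sulfate on versican, was the gene called. Its normalized log2 signal in PyMT-B6 CDPs was −3.23, −1.16, −2.33 and −3.28 for replicates 2 to 5, all well above background. In tumor-free CDPs it was −5.46, −5.30, −6.09 and −5.14, with replicate 5 alone well above background. *Selp* rose by 3.0 (SE 0.45, limma adjusted p = 0.00488), and by 1.48 after normexp (limma adjusted p = 0.0471). With 3 of 4 tumor-free CDP arrays not well above background, the size of this change depends on the background correction. It kept its call without each array in turn (limma adjusted p up to 0.0215) and lost it with only the CDP groups fitted, where 0 pathway genes were called. In MDPs its change was 1.96 (limma adjusted p = 0.169), and the difference of the changes did not pass the test (1.04, limma interaction, adjusted p = 0.748).

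Bright genes of this list were the hyaluronan receptor *Cd44* (mean level 3.81 over the 16 arrays, change in CDPs 0.08, in MDPs −0.27) and the P-selectin ligand *Selplg* (level 3.54, changes −0.29 and −0.10). Neither was called, and their adjusted p lay at 0.334 or above in both progenitors (limma). *Tlr2*, a receptor through which versican is known to act on myeloid cells, was well above background on all 16 arrays and had changes of 0.36 in CDPs and 0.44 in MDPs (limma adjusted p = 0.35 and 0.416).

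The relatives of versican that bind hyaluronan, and the link proteins that lock this bond (6 of 7 tested), held no called gene. *Hapln3* (level −1.39, change in CDPs 0.10), aggrecan, *Acan* (level −3.60, change 0.46), and *Hapln1* (level −3.72, change 0.22) were the brightest of them, and limma called 0 of 6 in CDPs (0 at an unadjusted p under 0.05) and 0 of 6 in MDPs (1). Of the enzymes that make or break hyaluronan (8 of 10 tested), *Has2*, a hyaluronan synthase, was the brightest (level 5.32, change in CDPs 0.65, SE 0.77), followed by *Ugdh*, which supplies a sugar precursor (level 2.29, change 0.08), and the hyaluronidase *Hyal2* (level −1.78, change −0.31). Limma called 0 of 8 in either progenitor, with 1 in CDPs and 0 in MDPs at an unadjusted p under 0.05.

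Of the proteases that cleave versican and their inhibitor, 3 of 8 were tested: *Adamts5* (level −0.72, change in CDPs 0.17), *Adamts8* (level −1.82, change 0.48) and *Adamts1* (level −5.12, change 0.25). Limma called 0 of 3 in both progenitors, and 0 had an unadjusted p under 0.05. *Adamts4*, *Adamts9*, *Adamts15*, *Adamts20* and *Timp3* failed the filter. Of the enzymes that build chondroitin sulfate chains 16 of 21 were tested, with 0 called (limma, 1 at an unadjusted p under 0.05 in CDPs and 0 in MDPs). The brightest were *Chsy1*, a chondroitin synthase (level 2.33, change in CDPs −0.02), *B3gat3*, which completes the linker of the chain (level 1.57, change 0.02), and *Fam20b*, a xylose kinase (level 0.73, change −0.11). Of other proteoglycan core proteins 9 of 13 were tested, with 0 called in either progenitor (limma, 2 in CDPs and 3 in MDPs at an unadjusted p under 0.05). Serglycin, *Srgn*, the granule proteoglycan of hematopoietic cells, was the brightest (level 2.42, change in CDPs 0.57, adjusted p = 0.151), and it was called with slide as a block (0.68, limma adjusted p = 0.0159). *Sdc3* (level −1.42, change −0.32) and *Agrn* (level −2.05, change −0.54) followed. *Dcn* and *Lum*, core proteins of stromal cells, failed the filter.

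**Figure D5:**
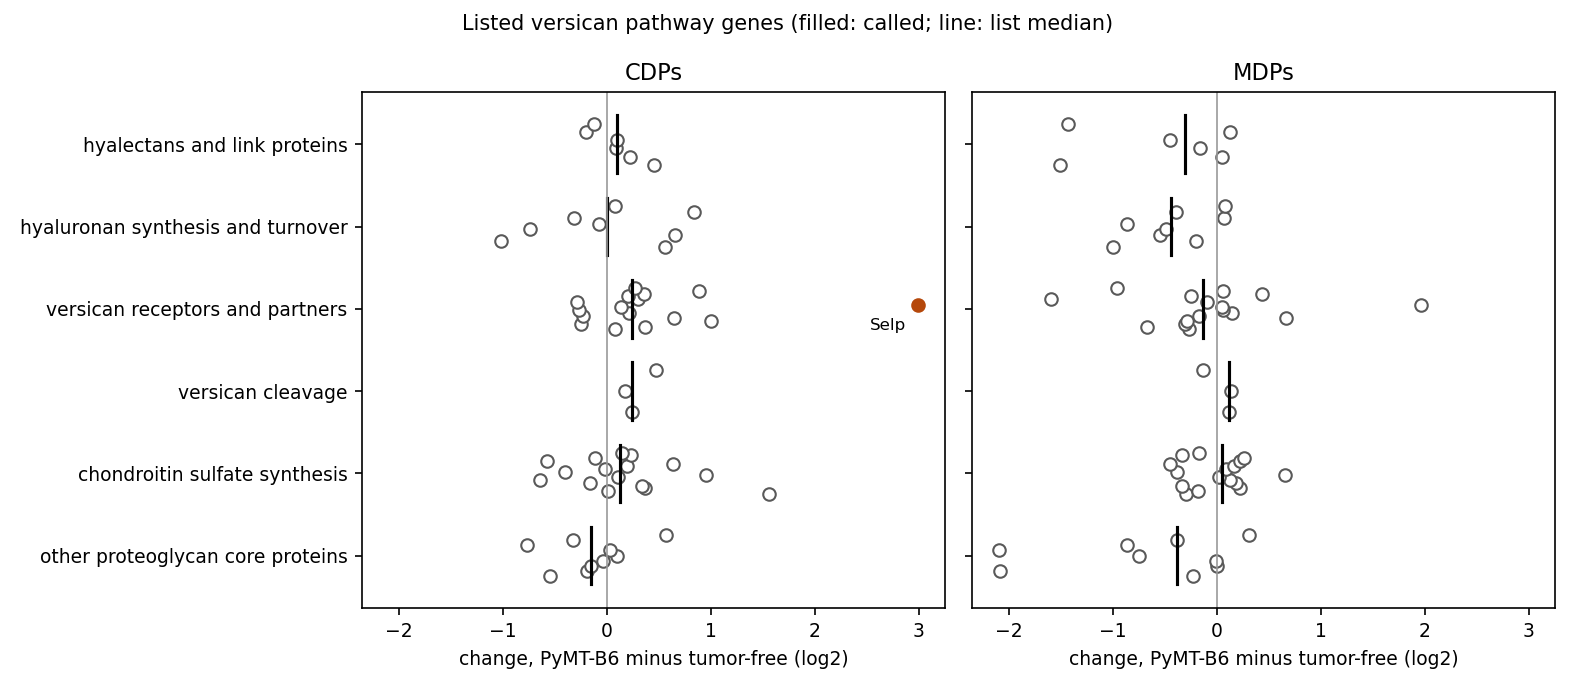
Change with tumor (PyMT-B6 minus tumor-free, log2, horizontal axis) of the tested pathway genes by list (vertical axis), CDPs left and MDPs right. Each point is 1 gene, filled where limma called it, and black lines are list medians. *Selp* at 3.0 in CDPs is the filled point.

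No neighbor of *Vcan* on the chromosome was called. RefSeq places 15 genes within 1 Mb, of which 5 had a probe, and *Edil3* was above background on no array. *Hapln1*, on the 3′ side, had a change of 0.22 in CDPs. On the 5′ side the values were 0.37 for *Gm4117*, −1.09 (SE 0.61) for the DNA repair gene *Xrcc4*, and 0.18 and 0.44 for both probes of *Tmem167*. Limma called none of these 5 probes in CDPs or in MDPs (lowest adjusted p 0.205 for a probe of *Tmem167* in CDPs). An unadjusted p under 0.05 was found for 1 in CDPs and 3 in MDPs, against 13.7% and 10.4% of all tested probes. The 3 in MDPs did not share a direction, with −1.51 for *Xrcc4* and 0.37 and 0.44 for *Tmem167*.

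Markers of other cells were read beside *Vcan* on the same arrays, and their part in its level was not tested. Of the neutrophil markers 3 of 14 tested rose in CDPs with tumor, against 0.802% of all tested probes: *Lcn2*, lipocalin 2 (2.70, limma adjusted p = 0.00186), *Mmp8*, a neutrophil collagenase (1.87, adjusted p = 0.00360), and *Elane*, neutrophil elastase (1.11, adjusted p = 0.0228). The other 11 were not called, and 3 of them, *Ngp* (−0.25), *Camp* (−0.65) and *Ltf* (−0.45), genes of neutrophil granule proteins, had values below 0. Of the 14, 11 had a change above 0, and the median change was 0.72, against 0.08 over all tested probes. An unadjusted p under 0.05 (limma) was found for 7, against 13.7% of all tested probes. Among these 7 were *Prtn3* (0.82, limma adjusted p = 0.0558) and *S100a8* (2.19, adjusted p = 0.104), both without a call. *Elane* lost its call without any of 5 CDP arrays (adjusted p up to 0.0764, limma). The summed level of the 14 (sum of the signals relative to the 75th percentile) was 118 to 160 in PyMT-B6 CDPs and 64.1 to 97.9 in tumor-free CDPs. In MDPs it was 105 to 156 in tumor-free and 112 to 187 in PyMT-B6 mice. The sum adds signals and not log2 values, so its brightest members make up most of it. In tumor-free MDPs *Elane*, *Mpo*, *Prtn3*, *Ctsg* and *Csf3r* had mean normalized log2 signals of 4.83, 4.82, 4.73, 4.54 and 4.34. *Ngp*, *Camp* and *Ltf* had −3.27, −3.04 and −3.54 there and add little. The sum was therefore not read as neutrophil content, which was not tested. *Lcn2* was the 1 of 14 called in MDPs, against 0.0328% of all tested probes (2.16, limma adjusted p = 0.0489), and it kept that call in 1 of 16 single-array omissions. Within tumor-free CDPs, the array with the highest *Vcan* signal on the 5′-side probe (replicate 2) also had the highest neutrophil, monocyte, progenitor and mammary tumor sums, and the array with the lowest (replicate 5) the lowest of these sums. The other lists did not follow this order. The macrophage sum was highest in replicate 2 but lowest in replicate 3, the stromal sum was highest in replicate 3, and the endothelial sum was highest in replicate 5. In PyMT-B6 CDPs *Vcan* was highest in replicate 4, whereas the neutrophil sum was highest in replicate 3 and the monocyte sum in replicate 2. In PyMT-B6 MDPs *Vcan* was also highest in replicate 4. That array had the lowest monocyte, progenitor, endothelial and mammary tumor sums and the highest macrophage sum, with neutrophil and stromal sums in between.

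Of the monocyte markers 1 of 14 rose in CDPs, *Ms4a6d* (2.26, limma adjusted p = 0.0288), a call lost without any of 7 CDP arrays (adjusted p up to 0.0982). An unadjusted p under 0.05 (limma) was found for 4 of the 14, *Cx3cr1*, which was lower, among them. Their summed level overlapped, 141 to 160 in PyMT-B6 and 122 to 161 in tumor-free CDPs. The summed level of 8 macrophage markers was 2.43 to 4.33 against 2.30 to 3.29 in the same CDP groups, and limma called 0 (0 at an unadjusted p under 0.05). Stromal cells also make versican, and of their markers *Dcn*, *Lum*, *Pdgfra* and *Lepr* failed the filter, 4 of the 7 tested were well above background on at least 3 PyMT-B6 CDP arrays, and the sum was 1.64 to 3.67 against 1.99 to 3.27 (limma called 0, with 1 at an unadjusted p under 0.05). With slide as a block 12 markers were called in CDPs in place of 6. That setting called 1248 of all 27433 tested probes in CDPs, in place of 494. The higher count was therefore not read as a result about the markers. Among the 12 were the stromal *Pdgfrb* (−2.59, limma adjusted p = 0.0360) and *Sparc* (−0.69, adjusted p = 0.04998), both lower. *Prtn3*, *S100a8* and *Fcgr1*, higher, and *Cd34*, lower, were also among them. Of the 5 endothelial markers *Pecam1* fell by 0.96 (limma adjusted p = 0.0424), a call that 12 of 16 single-array omissions removed, and the sum was 1.94 to 2.82 against 2.79 to 4.2. Among mammary tumor markers *Elf5* and *Cdh1* failed the filter, limma called 0 of 5 (0 at an unadjusted p under 0.05), and the sum was 0.50 to 1.2 against 0.48 to 1.13. Of the 7 progenitor markers, which include genes that define these cells, *Kit* fell in CDPs by 1.34 (limma adjusted p = 0.00427). In CDPs 1 of the 7 had a change above 0. An unadjusted p under 0.05 (limma) was found for 4, against 13.7% of all tested probes. *Cx3cr1* (−1.27), *Cd34* (−0.91) and *Flt3* (−0.79) were lower without a call in the main fit. The sum of the 7 was 50.6 to 56.8 against 57.2 to 71.4. *Csf1r* (4.23 in PyMT-B6 CDPs, change −0.21) and *Irf8* (4.30, change −0.02) were bright on all arrays.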

How the data were processed

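Per the labels, RNA of each sample was labeled with Cy5 and hybridized to its own Agilent mouse array. The authors deposited spot tables of Agilent Feature Extraction, whose processed signal is a background-subtracted spot intensity not scaled between arrays, beside the mean spot intensity and the local background intensity. Flags in these tables mark outlier and saturated spots, surrogate values and signal well above background. A log2 value table was deposited too, with 26793 probes (column medians 10.2 to 10.3), which holds all 3 *Vcan* probes. Its centering is not stated, and it served as an alternative. Its changes of the 5′-side *Vcan* probe nearly equaled those after quantile normalization (3.95 in CDPs and 0.82 in MDPs under both). It is therefore no separate check beside that setting.

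Control spots (1377 per array) and outlier spots were left out, log2 processed signals were scaled to the array's 75th percentile, and spots of a probe were averaged. No probe was saturated on any array. One fit of 4 group means was made with limma 3.58.1 in R 4.3.3. A probe was called at FDR under 0.05 and fold above 1.5, the threshold of the study. The fit was tested on simulated data. The members and lists were chosen with earlier results of these data known.

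Named are all *Vcan* probes, the 10 genes most alike to the brighter and the 5 most alike to the other probe that passed the filter, pathway genes called or among the 3 brightest of their list, and RefSeq neighbors within 1 Mb. One item that this rule names is not reported here. *Tlr2*, *B3galt6* and genes that failed the filter were named after their values were seen, as were the marker genes. Symbols come from RefSeq (GRCm38.p6) through the transcript for 28330 probes, and otherwise from the spot tables. Alternatives were normexp, quantile normalization, median scaling, other filters, the deposited table, slide and replicate blocks, only the 2 groups compared, the methods' t-test, outlier spots kept and each array left out. The number of arrays limits precision.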

Additional observations from a re-analysis of the deposited data

Results flagged for a closer look

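Of 112 groups of 4 arrays looked at for the *Vcan* probes and the named list genes, 5 held an array whose gap to the nearest other array took up more of the group's range than Dixon's critical value allows, which chance alone passes at a rate of about 0.05. On the 5′-side *Vcan* probe the array of tumor-free MDP replicate 4 was at −3.72 against −4.86 to −4.77 for the others (0.918). *Chsy1* in PyMT-B6 CDP replicate 4 was at 2.29 against 1.90 to 1.96 (0.860). *Srgn* was at 3.11 against 2.70 to 2.76 in tumor-free MDP replicate 3 (0.852) and at 2.13 against 1.36 to 1.40 in tumor-free CDP replicate 5 (0.953). *Cd44* was at 3.49 against 4.02 to 4.09 in tumor-free CDP replicate 5 (0.880), the array with the lowest *Vcan* signal on the 5′-side probe.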

How the results depend on the processing

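The CDP change of the 5′-side *Vcan* probe kept its direction under 9 alternatives (2.95 to 3.98) and without any array (2.95 to 4.67). That of the 3′-end probe was 2.15 to 4.75 (4.41 to 5.10 without an array) and that of the NM_172955 probe 0.68 to 2.51 (2.20 to 2.67), where normexp gave the lowest values, 2.15 and 0.68. Keeping outlier spots, dropping the filter, blocking on replicate and fitting 2 groups left the 5′-side change at 3.96. Leaving out any MDP array did the same. These settings are therefore no check on that change. The deposited table and quantile normalization both gave 3.95 and are not separate checks. CDPs against MDPs on the 5′-side probe gave 0.24 to 1.96 in tumor-free and 4.07 to 4.96 in tumor-bearing mice without an array, and 0.16 to 1.03 and 3.2 to 4.42 under 8 alternatives. The MDP change of the 5′-side probe was −0.055 to 0.84 without an array, reversed to −0.094 after normexp, and was called under none (limma adjusted p 0.625 to 0.992).

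Counts of called probes moved more. In CDPs, 494 became 1248 with slide as a block, 56 with only the 2 groups fitted, 2081 by the methods' t-test and 3 by that test after Benjamini-Hochberg, and 155 to 581 without an array (155 without PyMT-B6 replicate 4). In MDPs, 18 became 6 (normexp), 11 (quantile), 10 (no filter), 10 (probes above background on all 16 arrays, which leaves out all 3 *Vcan* probes), 7 (deposited table), 44 (slide), 5 (2 groups), 1026 and 1 (t-test, before and after adjustment), and 1 to 46 without an array. The cause was not tested. Of the 10 genes most alike, 3 remained after slide centering and 5 by rho. Quantile normalization moved the median MDP change of all probes by 0.12, and its calls were 72.7% higher, against 50%.

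With the replicate number as a block the counts were 371 in CDPs and 10 in MDPs. *Elane* and *Pecam1* lost their calls in CDPs and *Lcn2* in MDPs. The *Vcan* changes stayed at 3.96 and 4.73 in CDPs and 0.49 in MDPs (limma adjusted p = 0.789). Each group holds each number once, so this block cannot move them. Samples of the same number correlated at 0.02 to 0.48 in CDPs and −0.56 to 0.44 in MDPs, not above 0.1 in every pair, so the numbers were not taken to pair the samples. With only the 2 groups fitted, 0 pathway genes (*Selp* lost its call) and 2 markers were called in CDPs.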
